A study of Drosophila melanogaster with 2 samples.

Results

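The genes for the proteins of the mitochondrial ribosome were examined for peaks of Sloppy paired 2 (Slp2), a forkhead transcription factor, in Drosophila melanogaster embryos. The protein-coding genes of the Ensembl annotation whose symbols start with mRpL (large subunit) or mRpS (small subunit) were taken. This gave 73 of 13945 genes on the chromosome arms, 47 of the large and 26 of the small subunit. The subunit was read from the symbol alone and was not checked for each protein. Binding had been mapped by chromatin immunoprecipitation and sequencing (ChIP-seq) in embryos of 0 to 24 hours, both sexes pooled, of the transgenic strain 9T-GFP, which stably expresses Slp2 with a C-terminal green fluorescent protein. An anti-GFP antibody was used on 1 group of 2 samples, biological replicates 2 and 3. The series has no second condition, and the control data set that the labels name was not analysed here. Signal that a control precipitation would give at the same promoters was therefore not measured, and its part in the shares below was not tested. Whole embryos of this age mix all tissues and stages of embryogenesis, so the values cannot be assigned to a cell type. The authors' list of reproducible peaks, made with the irreproducible discovery rate (IDR, which compares peak ranks between replicates), held 3203 peaks, and their relaxed list of both replicates pooled held 28637. The signal value of a peak is the authors' own score, whose scale is not stated, so ranks within a list are given beside it (rank 1 is the strongest). The depth of the libraries is unknown, and with 1 group and 2 samples no test was made. Shares are set beside the same share over all protein-coding genes.

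Mitochondria keep a ribosome of their own, which translates the few proteins encoded by mitochondrial DNA, all of them parts of the respiratory chain in animals. Its RNAs are made in the mitochondrion, but its proteins are encoded in the nucleus, translated in the cytosol and imported. Many of them descend from bacterial ribosomal proteins, and others are found only in mitochondria. Slp2 is best known as a segmentation and neural regulator of the embryo, and the forkhead family to which it belongs recognises sites with a TAAACA core.

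The sequences around 6 of the summits are shown because they are the stretches on which the peaks at these genes centre. They come from the Release 6 assembly (dm6), run 5′ to 3′ in the direction of the ribosomal protein gene, reach at most 75 bp to each side of the summit and leave out every annotated exon. The genes mRpS10 (chr3R:15229457-15229607, plus strand), mRpS23 (chr2L:13835388-13835538, minus strand) and mRpL23 (chr3L:2373511-2373596, minus strand) hold 3 of the 4 strongest peaks of the set. The stretch at mRpL23 is intronic for its longer transcripts and lies upstream of its shortest one, and the other 5 lie upstream of every start of the gene. The genes mRpL24 (chr2L:4945427-4945577, minus strand), mRpL32 (chr3R:31252738-31252871, plus strand) and mRpL16 (chrX:1890068-1890218, plus strand) show motifs found at weaker summits. Capitals mark the forkhead core TAAACA or its complement TGTTTA, the site TATCGATA of the promoter factor DREF and the E-box CACGTG.
mRpS10: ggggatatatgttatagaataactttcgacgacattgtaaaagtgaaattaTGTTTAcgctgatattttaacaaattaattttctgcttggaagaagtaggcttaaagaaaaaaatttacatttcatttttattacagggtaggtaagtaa
mRpS23: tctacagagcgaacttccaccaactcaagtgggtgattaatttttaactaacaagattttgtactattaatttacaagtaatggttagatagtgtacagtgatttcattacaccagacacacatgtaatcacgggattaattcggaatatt
mRpL23: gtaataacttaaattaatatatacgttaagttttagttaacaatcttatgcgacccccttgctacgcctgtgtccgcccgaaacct
mRpL24: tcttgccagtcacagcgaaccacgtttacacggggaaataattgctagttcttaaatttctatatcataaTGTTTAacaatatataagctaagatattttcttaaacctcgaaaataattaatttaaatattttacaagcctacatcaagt
mRpL32: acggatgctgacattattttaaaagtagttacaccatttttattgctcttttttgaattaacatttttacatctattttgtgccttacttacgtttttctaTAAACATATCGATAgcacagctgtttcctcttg
mRpL16: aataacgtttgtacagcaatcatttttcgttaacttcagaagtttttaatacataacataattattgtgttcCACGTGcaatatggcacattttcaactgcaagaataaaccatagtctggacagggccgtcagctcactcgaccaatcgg

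An IDR summit lay within 500 bp of an own transcription start site (TSS) in 24 of the 73 genes (32.9%, 95% Wilson interval 23.2 to 44.3), where 15.2% of all protein-coding genes had one. A further 19 had an IDR summit only elsewhere in the gene body or within 5 kb of it, and 30 had none there. Together, 43 of the 73 (58.9%, interval 47.4 to 69.5) had a summit in the wider window, against 39.4% of all genes. The wider window takes in the own starts, so this share includes the 24 genes and is not a separate result. Over all 13945 genes, 5500 had a summit in the wider window, among them the 2120 with one at an own start. The genes of the set were shorter than most, with a median length of 909 bp against 2166 bp over all genes. These intervals take each gene as an independent draw and reflect the limited count alone. With the strongest peaks of each sample alone, as many as the IDR list holds, the counts at an own start were 23 of 73 in replicate 2 (31.5%, against 14.2% of all genes) and 25 of 73 in replicate 3 (34.2%, against 15.6%). No peak was shared by 2 genes of the set. By their place relative to the limit of 500 bp, mRpL36 (summit 451 bp from its TSS) and mRpS23 (391 bp) were the last inside, and mRpL55 (689 bp) was the first outside.

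The strengths fell into a small group of very strong peaks and a long tail. Of the 24 peaks, 4 ranked among the strongest 100 of the IDR list (16.7%), another 2 came within the strongest 1000, and 18 ranked beyond (75%). Of all 1631 IDR peaks at promoters, 3.86% were among the strongest 100 and 66.8% ranked beyond 1000. The signal values ran from 66.2 to 928.68 with a median of 95.2, and the ranks from 10 to 3154 with a median of 1791. Over all IDR peaks at promoters, the median signal was 104.1 and the median rank 1547. Each of the 24 genes entered with its strongest peak only, while the 1631 count every peak at a promoter. A further, weaker summit at 3 of the genes was left out. On these unlike counts the set had a larger share than all promoter peaks both among the strongest 100 and beyond rank 1000, and its median signal was lower. None of these differences was tested.

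The strongest lay at mRpL41, a large subunit gene on arm 2R (15217024 to 15217617) whose protein has no bacterial counterpart in mammals. Its summit stood 136 bp upstream of the TSS, and the peak (15217567 to 15217964) had a pooled signal of 928.68 and rank 10. Its signal was 451.04 in replicate 2 and 479.92 in replicate 3, rank 9 in each. It was one of only 2 of the 24 with no TSS of another protein-coding gene within 500 bp of the summit, the other being mRpL4.

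The next was at mRpS10 on 3R (15229665 to 15230516), which encodes a protein of the head of the small subunit in bacteria and mammals. The summit, 133 bp upstream of its TSS and 124 bp from that of Art3, an arginine methyltransferase gene on the other strand, had signal 898.03 and rank 11. The samples gave 427.4 (rank 12) and 473.71 (rank 10). This promoter sequence, the first of those printed, is shared by both genes, and its TGTTTA lies close to the summit.

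At mRpS23 on 2L (13834250 to 13835072), whose protein is found only in mitochondria in mammals, the signal was 752.47 (rank 16), with 361.89 in replicate 2 (rank 20) and 389.46 in replicate 3 (rank 18). The summit stood 391 bp upstream of mRpS23 but 101 bp from the start of CenG1A. The peak at mRpL23 on 3L (2372844 to 2373704), whose bacterial counterpart lines the mouth of the exit tunnel, had signal 425.78 (rank 77), with 184.81 in replicate 2 (rank 119) and 245.76 in replicate 3 (rank 53). The nearest TSS, at 85 bp, was that of its shortest transcript, and the gene has 3 annotated starts in all. In all 4 of these genes both samples placed the peak among their strongest 119.

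Below these, the signal dropped to 196.73 at mRpL34 on 2R (16098948 to 16099337; rank 460), with 89.35 in replicate 2 (rank 609) and 99.37 in replicate 3 (rank 433). Its summit lay 250 bp upstream of the gene and 134 bp from the start of Dg, the dystroglycan gene. A further IDR summit at mRpL34, with signal 97.3, was 42 bp from its TSS. The genes mRpL4 on 2L (16328059 to 16329132; signal 139.47, rank 899) and mRpL24 on 2L (4944256 to 4945361; 131.66, rank 1011) followed, whose bacterial counterparts lie along the exit tunnel. The summit of mRpL4 lay 105 bp upstream with no other gene's TSS within 500 bp, and that of mRpL24 lay 141 bp upstream and 77 bp from betaggt-I. For mRpL4 the samples gave 66.8 (rank 1137 in replicate 2) and 72.93 (rank 789 in replicate 3). For mRpL24 they gave 62.28 (rank 1309) and 71.74 (rank 811). All 3 ranked higher in replicate 3.

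The last of the 10 strongest were mRpL11, mRpS2 and mRpL47. At mRpL11 on 3R (14511838 to 14512691), a counterpart of the bacterial stalk-base protein, the signal was 120.69 (rank 1200), with 60.46 (rank 1380) in replicate 2 and 62.67 (rank 1040) in replicate 3. The summit lay 251 bp upstream of mRpL11 and 125 bp from the start of HtrA2, inside that gene. A weaker summit there (65.9) was 38 bp from the TSS of mRpL11. At mRpS2 on 2L (4849439 to 4850419) the signal was 117.47 (rank 1251), with 64.15 (rank 1231) and 50.61 (rank 1504) in the samples, 184 bp upstream and 38 bp from Mon1. At mRpL47 on 3R (9514822 to 9515908), the counterpart of a bacterial protein at the tunnel exit, it was 114.01 (rank 1324), with 57.33 (rank 1517) and 44.4 (rank 1868), 77 bp upstream and 22 bp from both CG8176 and Kdm3. In all 3 the closest start to the strongest summit belonged to another gene.

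Of the other 14 genes with a peak at their own start, 9 are of the large subunit (mRpL16, mRpL18, mRpL20, mRpL32, mRpL35, mRpL36, mRpL37, mRpL53 and mRpL54) and 5 of the small subunit (mRpS6, mRpS7, mRpS21, mRpS24 and mRpS31). Their pooled signals ran from 66.2 at mRpL36 to 102.94 at mRpS7. At mRpL32 (99.08), the DREF site and the TAAACA core stand side by side between the summit and the TSS, which is 59 bp downstream of the summit. At mRpL16 (85.08), the only such gene on X, the E-box lies at the summit itself and a DREF site 85 bp from it, beyond the printed stretch.

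**Figure D1:**
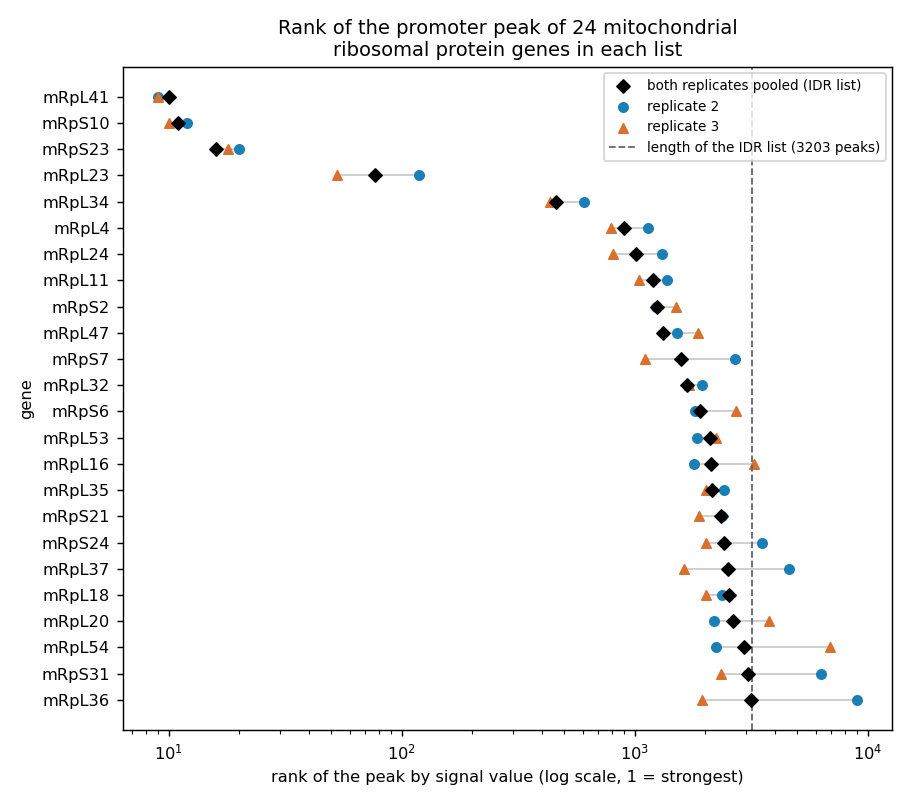
Rank by signal value (log axis, 1 = strongest) of the peak at the own start of each of the 24 genes, in the IDR list (black diamonds), replicate 2 (blue circles) and replicate 3 (orange triangles); the dashed line marks the length of the IDR list. The 4 strongest lie together near the left in both samples, and the spread between samples is widest among the weakest, up to 9051 in replicate 2 for mRpL36.

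Each of the 24 peaks had a summit within 200 bp in both samples, at a median distance of 16 bp in replicate 2 and 21 bp in replicate 3. The rank in the less favourable sample was 1.42 times that in the other as a median, and at most 4.66 times (mRpL36). Against the 3203 strongest peaks of each sample, 18 of the 24 (75%) overlapped one in both. The share was 71.4% over all IDR peaks at promoters, where every peak is counted and not only the strongest of a gene. As a share of the genes this was 18 of 73 (24.7%), against 10.8% of all protein-coding genes. The other 6 were held by the strongest set of 1 sample. These were mRpL37 (rank 4582 in replicate 2, 1631 in replicate 3), mRpS31 (6339 and 2355) and mRpL36 (9051 and 1943), outside the set of replicate 2, and mRpL16 (1794 and 3262), mRpL20 (2197 and 3794) and mRpL54 (2246 and 6868), outside that of replicate 3. All 6 had pooled ranks beyond 2000. The IDR list is the strongest part of the pooled list, so holding a pooled peak in both samples follows in part from that choice.

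The promoters of this set were often shared with a neighbour. A promoter is called divergent here where a protein-coding gene on the other strand starts within 500 bp upstream. This was so for 53 of the 73 genes (72.6%, interval 61.4 to 81.5), and for 27.4% of all genes, with a median of 264 bp between the starts. Among divergent promoters, 21 of 53 (39.6%, interval 27.6 to 53.1) had an IDR summit, against 31.3% of all divergent promoters. Among the rest, 3 of 20 (15%, interval 5.24 to 36) had one, against 9.15%. At the shares of all divergent and all other promoters, 18.4 of the 73 genes would have had a summit, where the overall share gives 11.1 and 24 were found. The difference of the set from all genes was therefore smaller within the promoter classes than over both together, and the interval for each class includes the share of all genes. The part of the promoter arrangement in the result was not tested.

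**Figure D2:**
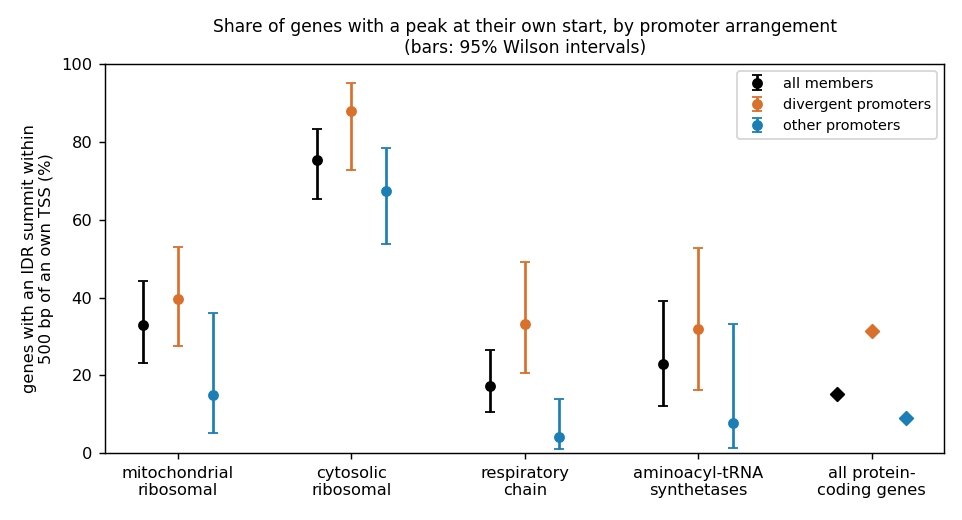
Percentage of genes with an IDR summit within 500 bp of an own TSS, for all members of 4 gene groups (black), their divergent promoters (orange) and their other promoters (blue), with 95% Wilson intervals; diamonds at the right give the same over all protein-coding genes. Mitochondrial ribosomal protein genes lie at 32.9%, between the cytosolic ribosomal protein genes at 75.3% and the respiratory chain genes at 17.2%.

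Most of the summits could belong to a neighbour. Of the 24, 22 had a TSS of another protein-coding gene within 500 bp (91.7%, against 58.3% of the 2120 genes with a summit at an own start), and for 14 of the 24 that TSS was closer than the own one (at mRpL53 the own start and that of CG33155 were equally close). With the nearest TSS required to be the gene's own, and any of its summits counted, 12 of the 73 genes (16.4%, interval 9.66 to 26.6) had a peak, against 11.1% of all genes. By class these were 10 of 53 divergent promoters (18.9%, against 17.3%) and 2 of 20 others (10%, against 8.73%). Of the 21 divergent genes with a peak, the summit lay between both starts in 17. In the other 4 it lay beyond the neighbour's start (mRpL11, mRpL35 and mRpL18) or 11 bp inside the gene itself (mRpL54). At mRpL23, one of the 17, the own start is that of its shortest transcript, and the summit lies within the gene for its longer ones. The same share over all divergent promoters with a peak was not computed. Summits lay upstream of the closest own TSS in 22 of 24 (91.7%), as they did in 87.9% of all genes with a summit there. The median distance was 151.5 bp against 139.5 bp.

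Some of these neighbours also serve mitochondria. HtrA2 (beside mRpL11) encodes a protease, Mitofilin (mRpL35) a protein that shapes the inner membrane, Taz (mRpL18) the cardiolipin remodelling enzyme tafazzin and qless (mRpL32) an enzyme of coenzyme Q synthesis. Others have unrelated roles, among them the cell cycle kinase gene Cdk1 (mRpS7), the Argonaute gene AGO1 (mRpL53), Apc2 (mRpS24) and the histone methyltransferase gene trr (mRpL16). Whether neighbours of either kind were more frequent than at other promoters was not tested.

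**Figure D3:**
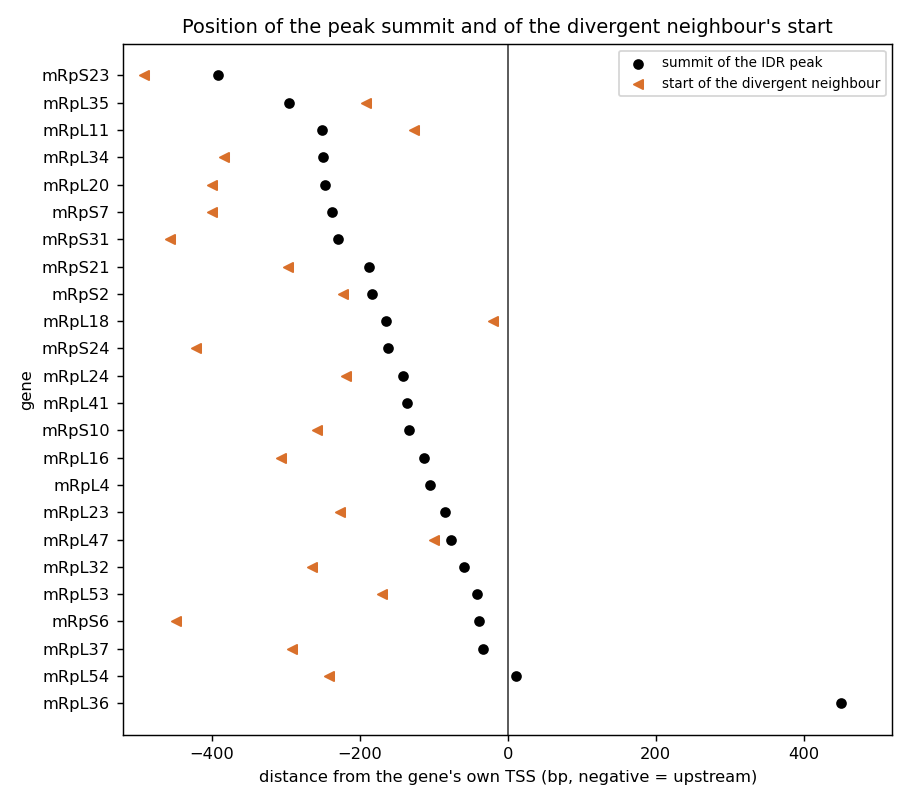
Position of the strongest IDR summit (black) and of the start of the divergent neighbour (orange), in bp from the own TSS closest to the summit, for the 24 genes (negative is upstream). In 22 of the genes the summit is upstream, in 17 it lies between the gene's own start and that of the neighbour, and 3 have no divergent neighbour.

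The subunits, as named by the symbols, and the classes of descent are given beside the shares of all genes. These are 15.2% with a summit at an own start and 39.4% with one in the wider window. A summit at an own start was found in 16 of 47 large subunit genes (34%, interval 22.2 to 48.3) and 8 of 26 small subunit genes (30.8%, interval 16.5 to 50). In the wider window the counts were 30 of 47 (63.8%, interval 49.5 to 76) and 13 of 26 (50%, interval 32.1 to 67.9). Divided by descent, as known from mammals, 18 of 45 genes with a bacterial counterpart (40%, interval 27 to 54.5) and 6 of 28 genes for mitochondria-specific proteins (21.4%, interval 10.2 to 39.5) had one. The intervals overlap between the subunits and between the classes of descent, and neither difference was tested. The interval of the mitochondria-specific class at the own start and that of the small subunit in the wider window include the share of all genes. The 6 mitochondria-specific genes were mRpL41, mRpL37, mRpL53, mRpL54, mRpS23 and mRpS31, so 2 of the 3 strongest peaks were of the smaller class.

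By arm, genes with a peak at the own start were 5 of 12 on 2L, 5 of 12 on 2R, 5 of 17 on 3L, 8 of 21 on 3R and 1 of 11 on X. The shares over all genes of these arms were 14.1%, 14.6%, 16.6%, 16.5% and 13.9%. The X chromosome was thus the one arm where the share of these genes (9.09%, interval 1.62 to 37.7) was below that of all genes, and the interval is wide. No gene of the set lies on chromosome 4, where 7.5% of all genes had such a summit.

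The 19 genes with a summit in the window but not at an own start drew it mostly from other promoters. In 18 of them the strongest summit lay within 500 bp of another gene's TSS, between 689 and 5852 bp from the own one. Their strongest signals ran from 68.4 to 359.15 with a median of 105.65. At mRpL33 on X, the exception, the summit of signal 359.15 lay inside norpA, 1372 bp from its nearest TSS. At mRpL19 the peak (326.14) was at CG8036, at mRpL28 (284.62) at CG3792, at mRpS18B (227.18) at Pyroxd1, at mRpL46 (167.23) at PolD2, a DNA polymerase delta subunit gene, and at mRpL13 (147.56) at CG10602. Over all IDR peaks, 1631 of 3203 lay at promoters. The share for other genes with a summit in the window only was not computed.

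At 4 of these 19 the peak stood at the promoter of a cytosolic ribosomal protein gene: RpL4 near mRpS22 (138.48), RpL35A near mRpL44 (112.5), RpL27A near mRpL27 (109.96, 3 bp from the RpL27A start) and RpL18 near mRpL50 (73.6). Of all cytosolic ribosomal protein genes, 64 of 85 (75.3%) had an IDR summit at an own start, against 15.2% of all genes. Whether a peak at such a promoter was more frequent near these 19 than near other genes was not tested. At mRpL2, a counterpart of a protein at the catalytic centre, the peak (104.88) was at FoxK, itself a forkhead gene. For the others the nearest start was that of if (mRpL22, 105.65), cdi (mRpL55, 80.88), orb2 and CG43783 (mRpL12, 74.66), CG13097 (mRpL51, 71.69), Irbp (mRpL40, 69.87), Polr3D (mRpS26, 69.86), Taf7 (mRpS9, 69.75) and Cenp-C (mRpS18A, 68.44). None of the windows of the 73 genes shared a summit with another of them.

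The 30 genes with no IDR summit within 5 kb were mRpL1, mRpL3, mRpL9, mRpL10, mRpL14, mRpL15, mRpL17, mRpL21, mRpL30, mRpL38, mRpL39, mRpL42, mRpL43, mRpL45, mRpL48, mRpL49, mRpL52, mRpS5, mRpS11, mRpS14, mRpS16, mRpS17, mRpS18C, mRpS25, mRpS28, mRpS29, mRpS30, mRpS33, mRpS34 and mRpS35. Among them are genes whose bacterial counterparts build the core of the ribosome, such as mRpL3, and mRpS29, whose human counterpart is the GTP-binding protein DAP3.

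Weaker peaks lay at many of the other starts. In the relaxed pooled list, 59 of the 73 genes (80.8%, interval 70.3 to 88.2) had a summit within 500 bp of an own TSS, where 51.4% of all genes had one. The authors name this list as peaks with background, so a summit in it is no call. It holds all 3203 IDR peaks. Over all 13945 genes, 7164 had a relaxed summit at an own start, among them the 2120 with an IDR summit there. For genes with no IDR summit at their start, the share with a relaxed one over all genes follows from these counts and was not computed separately. In the set, 35 of 49 such genes had a relaxed summit there, with ranks from 3239 to 27815 (median 9150). The strongest was at mRpL42 with signal 65.03, just under the lowest signal of the IDR list, 65.41. At its start mRpL42 ranked 1330 in replicate 2, and replicate 3 had no summit at this start. It was followed by mRpS16 (62.48, rank 3432), mRpL21 (60.67, rank 3584), mRpL48 (56.36, rank 4009) and mRpS22 (54.48, rank 4228).

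Of the 14 genes with no pooled summit at the start, 9 had one in the relaxed list of a single sample: mRpS14, mRpS18B, mRpS28 and mRpS35 in replicate 2, and mRpL30, mRpL33, mRpL39, mRpS5 and mRpS29 in replicate 3. The other 5, mRpL19, mRpL40, mRpL46, mRpS33 and mRpS34, had none in any of the lists. Since the lists hold a limited number of peaks and the depth is unknown, a lower signal at these starts was not measurable.

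**Figure D4:**
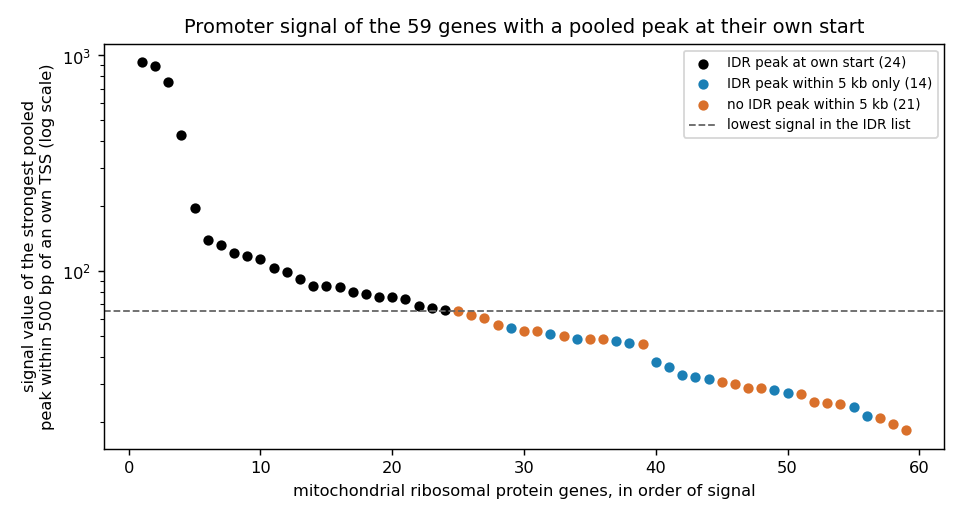
Signal value (log axis) of the strongest pooled peak within 500 bp of an own TSS for the 59 genes that have one, in order of signal; colours give the class by IDR peaks and the dashed line the lowest signal in the IDR list, 65.41. After the 5 strongest the values decline without a gap through the dashed line, down to 18.2.

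Groups of related genes, taken by symbol, were compared by the same counts. Cytosolic ribosomal protein genes, which build the ribosome of the cytosol, had an IDR summit at an own start in 64 of 85 (75.3%, interval 65.2 to 83.2). Respiratory chain genes, the partners of the mitochondrial translation products, had one in 15 of 87 (17.2%, interval 10.7 to 26.5), and aminoacyl-tRNA synthetase genes in 8 of 35 (22.9%, interval 12.1 to 39). The mitochondrial ribosomal protein genes lay between these. At divergent promoters the shares were 87.9% (29 of 33) for cytosolic ribosomal proteins, 33.3% (13 of 39) for the respiratory chain and 31.8% (7 of 22) for the synthetases, beside the 39.6% above and the 31.3% of all divergent promoters. Over all protein-coding genes the share was 15.2%, which lies within the intervals of the respiratory chain and the synthetase genes. No test of these differences was made.

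Of 22 genes for the maintenance, transcription and translation of mitochondrial DNA, 3 had a summit at an own start (13.6%, interval 4.75 to 33.3), against 15.2% of all genes. In the wider window 9 of 22 had one (40.9%), against 39.4%. The 3 were PNPase, which encodes an RNA-degrading phosphorylase (signal 835.96, rank 12), mtSSB, the single-strand DNA binding protein gene (161.66, rank 668), and PolrMT, the mitochondrial RNA polymerase gene (71.79, rank 2772). Of the translation factor genes, mIF3 had one in the wider window, and mEFTu1, mEFTu2, mEFTs, mEFG1, mIF2, mRRF1 and mRRF2 had none there. The list of 22 also holds tko (S12) and bonsai (S15), mitochondrial ribosomal protein genes with names of their own. Neither had a summit at the start, and bonsai had one within 5 kb. Other genes of this kind outside the symbol rule were not searched for.

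The letters under the summits were searched for short motifs on both strands, reaching 100 bp to each side of the summit. The forkhead core TAAACA was found in 3 of the 24 windows (12.5%, interval 4.34 to 31), at mRpS10, mRpL24 and mRpL32. It was found in 27.6% of the 1604 other IDR summits at promoters and in 22% of all 13945 promoters. Around the starts of all 73 genes, with or without a peak, it was found in 23 (31.5%, interval 22 to 42.9). These were 8 of 24 promoters with a peak at the own start and 15 of 49 without one (33.3% and 30.6%). Promoter windows had the same length and lay mostly upstream of the outermost start. The longer form GTAAACA, which contains the core, was found only at mRpS10 (4.17%), against 7.98% of other promoter summits and 6.4% of all promoters. Windows of 50 bp on each side held the core in 3 of 24 (12.5%), where 15.1% of the other promoter summits did. With 200 bp on each side it was 13 of 24 (54.2%), against 47.7%. The interval of the 24 summits includes the share of the other promoter summits in the windows of 50 and 100 bp on each side. None of these differences in the core was tested.

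The DREF site TATCGATA stood in 2 of the 24 summit windows (8.33%), at mRpL32 and mRpL16, beside 7.73% of other promoter summits. Its core ATCGAT, which lies inside the full site, stood in 5 (20.8%, against 17.2%), also at mRpL4, mRpL47 and mRpS24. Around the starts of all 73 genes, with or without a peak, the full site was found in 15 (20.5%, interval 12.9 to 31.2), where 8.23% of all promoters had it. With a peak at the own start it was found in 5 of 24 promoters and without one in 10 of 49 (20.8% and 20.4%). For the core the counts were 6 of 24 and 19 of 49 (25% and 38.8%). Neither difference was tested.

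The E-box CACGTG was found in 1 summit window (mRpL16; 4.17%, against 3.05% of other promoter summits) and the TATA box TATAAA in 9 (37.5%, against 31.2% of other promoter summits). The core of Ohler motif 1 (GGTCACAC), the GAGA form (GAGAGAG), the Ets form (CCGGAAGT), the Zelda site (CAGGTAG) and an NRF-1 form (GCGCAN followed by GCGC) were found in none of the 24. At the other promoter summits their shares were 4.43%, 4.43%, 0.561%, 0.748% and 0.125%, in the same order, so that few or no matches in 24 windows are not informative. A match is a description of the letters and not a binding site. The windows were poor in G and C, with a median of 34.3% (lowest 24.9%, highest 53.7%), against 36.8% at other promoter summits. Flanks 600 bp to the left and right of the same summits had medians of 50% and 52.7%. Flanks of other promoter summits were not measured. The medians were 35.8% at IDR summits away from promoters, 36.3% at the promoters of all 73 genes and 39.3% at all promoters.

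**Figure D5:**
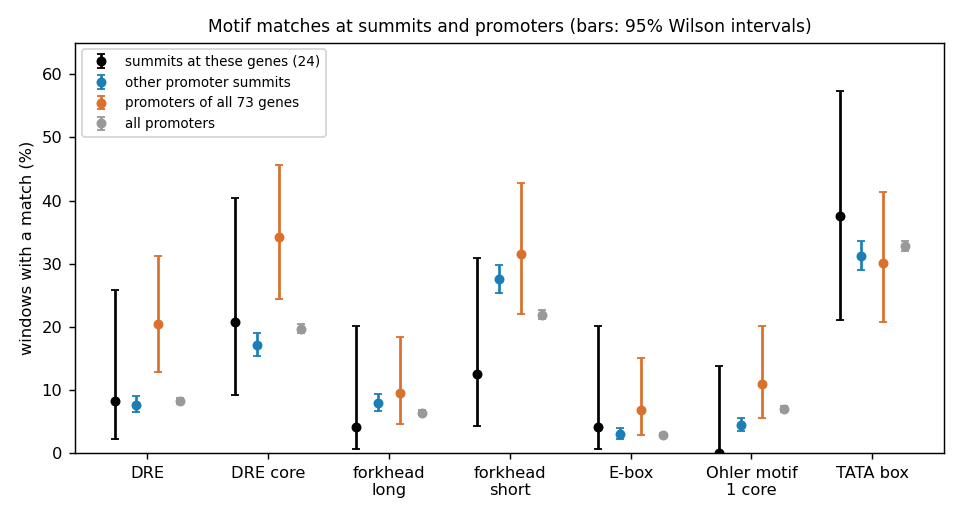
Percentage of windows with a match to each motif, with 95% Wilson intervals. Black marks the 24 summits at these genes, blue 1604 other IDR summits at promoters, orange the promoters of all 73 genes and grey all 13945 promoters. Summit windows reach 100 bp to each side. Promoter windows have the same length but lie mostly upstream of the outermost start. The DREF site is found in 20.5% of the promoters of the 73 genes and 8.23% of all promoters. The forkhead core is found in 12.5% of the 24 summits and 31.5% of the promoters of the 73 genes.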

How the data were processed

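ChIP-seq of Slp2 fused to green fluorescent protein was made in 2 embryo samples of 1 group. Chromatin was sonicated to 200 to 800 bp, per the labels. The authors deposited narrowPeak lists on dm6, named in the deposited readme files by their output type: a relaxed list for each replicate (30000 peaks each), a pooled one (28637) and the IDR list (3203), whose rows were checked to be the strongest of the pooled list. The signal value in the deposited lists is a score given by the authors' peak calling, with no scale stated. The other deposited field used is the distance of the summit from the peak start. Aligner, caller and thresholds are not given in the sources used here. Pooled signals carry no error of their own. Lists on dm3 were not used.

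Genes and starts were read from the Ensembl annotation BDGP6.54, release 115, and sequences from the RefSeq Release 6 genome. A summit is the peak start plus its offset. Distances run to the nearest annotated start of any transcript. Values of a replicate are those of its summit nearest to the pooled one, within 200 bp. Intervals are Wilson intervals at 95% and cover counting error only. No test was made, as the design has 1 group. The counting was tested on simulated data. Python 3.11.15, numpy 2.4.6, pandas 2.3.3, scipy 1.17.1 and matplotlib 3.10.9 were used.

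The genes, lists and motifs were chosen with earlier results of these data known. All 73 genes are accounted for, with full values for the 10 strongest peaks at own starts. Cytosolic ribosomal protein genes were those with RpL, RpS or RpLP and a number, without kinase and -like genes. Respiratory chain genes were those whose symbols begin with ND-, COX, UQCR, ATPsyn or Sdh. This takes in ATP synthase genes, and no -like genes were removed. Synthetase genes have symbols ending in RS or RS-m. Of 24 symbols in the list of mitochondrial maintenance, transcription and translation genes, made by hand, 22 matched, and 1 of the others is an older name of a matched gene. The classes with and without a bacterial counterpart follow the names of the mammalian proteins and were added after the peaks had been seen. Alternatives changed the windows, the starts, the peak list, the overlap rule, the motif window and the replicate used. The name of 1 neighbouring gene is not reported here.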

Additional observations from a re-analysis of the deposited data

How the results depend on the processing

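The count of 24 genes with an IDR summit at an own start was 22 and 25 with windows of 250 and 1000 bp (12.1% and 17.8% of all genes), and 24 with the outermost start alone, with tko and bonsai added or with shared peaks counted once. It was 12 where the nearest TSS had to be the gene's own (11.1% of all genes). The stronger 50% of the IDR peaks gave 11 (15.1%, against 8.13% of all genes), of which 7 were of the large subunit, 4 of the small and 9 at divergent promoters. The whole relaxed pooled list gave 59 (51.4% of all genes), of which 41, 18, 46 and, at other promoters, 13. With the strongest peaks of 1 replicate alone the count was 23 to 25, with 15 to 16 large, 7 to 10 small, 21 divergent and 2 to 4 other. The count of 43 in the wider window was 36 and 64 with windows of 2 and 20 kb (27.7% and 69.1% of all genes), 3 in the body alone (9.06% of all genes, which are longer), 26 with the stronger 50% of the peaks (24.1%), 73 with the relaxed list (91.1%) and 42 to 45 with 1 replicate. The 18 peaks held in both samples were 18 under each overlap rule, and the median rank was 1787.5 to 1838.5 by replicate.

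Motif counts of the 24 summit windows rested on few matches. With 50 bp on each side they were 1 for the DREF site, 2 for its core and 5 for the TATA box. The count for the forkhead core was 3. As shares these were 4.17%, 8.33%, 20.8% and 12.5%, against 4.18%, 9.79%, 16.2% and 15.1% of other promoter summits, in the same order. With 200 bp the counts were 4 for the DREF site, 4 for the longer forkhead form and 13 for the forkhead core. They were 3 for the E-box, 2 for Ohler motif 1, 15 for the TATA box and 1 for the Zelda site. Longer windows hold more letters. As shares these 7 were 16.7%, 16.7%, 54.2%, 12.5%, 8.33%, 62.5% and 4.17%. At other promoter summits the shares were 12.2%, 15.3%, 47.7%, 5.99%, 8.73%, 50.5% and 1.56%. With the summits of 1 replicate the counts were 1 to 2 for the DREF site and 3 to 5 for its core. They were 1 for the longer forkhead form, 4 to 6 for the forkhead core and 1 to 2 for the E-box. For Ohler motif 1 they were 0 to 1 and for the TATA box 10 to 11. No paired analysis was possible because the series holds 1 group. The depth of the libraries is unknown, which limits what the absence of a peak can show.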
